A study of Mus musculus with 12 samples.

Results

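The colony-stimulating factor genes Csf1, Csf2 and Csf3, the interleukin gene Il34 and the stem cell factor gene Kitl were followed across STHdhQ7 and STHdhQ111 cells with and without IFNγ/LPS. They were picked by gene name and make up 5 of the 29428 genes in the expression table. All 5 reached 0.5 TPM (transcript abundance scaled for transcript length and library total) in at least 3 libraries and were among the 16127 genes tested. STHdhQ7/Q7 is the line labelled normal, whose huntingtin carries 7 glutamines, and STHdhQ111/Q111 is the line labelled HD, whose huntingtin carries 111. Nontreated cells form the groups Q7-C and Q111-C, and cells given 100 ng/mL murine interferon-gamma (IFNγ) together with 5 μg/mL lipopolysaccharide (LPS) for 24 h form Q7-T and Q111-T, with 3 libraries in each group. Both lines were grown at 33 °C and used within 20 passages of purchase. Each genotype is represented by 1 immortalized line, so the huntingtin allele and any other difference between the lines cannot be told apart, and neither can the parts of IFNγ and LPS in the treatment. The study calls the libraries of a group biological replicates, while the labels only number them and do not name separate cultures, so p-values measure the spread between these libraries.

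The proteins encoded by these genes are secreted or membrane-bound growth factors that control the survival, growth and maturation of blood cells. CSF1 (M-CSF) and IL-34 share the receptor CSF1R and maintain macrophages and microglia, and in the brain IL-34 is known as a neuronal product on which many microglia depend. CSF2 (GM-CSF) and CSF3 (G-CSF) are cytokines that stromal and glial cells can release under inflammatory stimuli, while KIT ligand supports hematopoietic stem cells, germ cells and melanocytes.

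The 12 libraries held between 57505990 and 96417834 estimated counts. Low counts fell on multiples of 4 between 1.28 and 1.72 times as often as on the neighbouring even numbers, so 1 read pair was taken as about 4 estimated counts, which gives between 14376498 and 24104458 read pairs. Q7-T replicate 2 stood apart, as its nearest library was Q7-C replicate 1, whereas each of the other 11 libraries lay nearest to a library of its own group. The lines are labelled striatal neuronal, yet of 4 striatal neuron markers with a row Adora2a and Bcl11b stayed under 0.5 TPM in every library. The other 2 were low: Map2 had group means of 2.13 to 7.93 TPM and Ppp1r1b of 0.103 to 1.12 TPM. Of the mesenchymal markers, Vim averaged 2493 TPM in nontreated STHdhQ7 and 2462 TPM in nontreated STHdhQ111 cells, Acta2 1670 and 43.7 TPM, Col1a1 265 and 791 TPM, and Col1a2 14.6 and 250.2 TPM, while Thy1 was under 0.5 TPM in every library. The summed level of these 5 markers was 4195 to 4761 TPM in Q7-C, 3270 to 3679 TPM in Q7-T, 3459 to 3602 TPM in Q111-C and 1474 to 1580 TPM in Q111-T, and its part in the responses of the members was not tested. In treated STHdhQ111 cells Vim averaged 1186 TPM, Col1a1 264 TPM and Col1a2 40.1 TPM, and in treated STHdhQ7 cells 1848, 87.6 and 4.17 TPM. Of 7 genes read as a check of the treatment (Irf1, Gbp2, Cxcl10, Nfkbia, Tnfaip3, Cxcl1 and Ccl2), 7 were upregulated in each line.

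The 3′ UTRs of the 5 transcripts are described first, and stretches are shown for Csf2 and Csf3, the members with the largest response. Pentamers of the letters ATTTA in a 3′ UTR are the core of AU-rich elements, to which proteins such as ZFP36 (tristetraprolin) bind and speed the decay of cytokine mRNAs. In the GENCODE M21 annotation of GRCm38, the 317-base 3′ UTR of Csf2 holds 9 such pentamers, or 28.4 per kb, a density reached by 0.0411% of 19487 mouse 3′ UTRs of at least 100 bases. Csf3 has 6 in 669 bases, or 8.97 per kb, which 1.36% of these UTRs reach. Kitl has 14 in 4435 bases (3.16 per kb), Il34 has 1 in 439 bases (2.28 per kb) and Csf1 has 4 in 2111 bases (1.89 per kb), against a median of 1.32 per kb. The 30-base windows with the most pentamers, with ATTTA in capitals, lie at chr11:54247329-54247358 on the minus strand in Csf2, where 5 overlap, and at chr11:98702984-98703013 on the plus strand in Csf3, which holds 3:
Csf2: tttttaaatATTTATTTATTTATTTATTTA
Csf3: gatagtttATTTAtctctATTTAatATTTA

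Promoter windows from RefSeq (GRCm38.p6, 250 bases before to 50 after the start) matched 3 of the 5 genes, Csf1, Csf2 and Kitl, which differ in their response. Both strands were searched for the NF-kB motif, for AP-1 (TGANTCA), C/EBP (TTNNGNAA), the STAT element (TTCNNNGAA), a TATA box (TATAAA) and an ETS site (CCGGAAG). Matches are in capitals, and none overlapped another. The Csf1 window at chr3:107760420-107760719 (minus strand) holds an NF-kB match on the opposite strand, starting at position -154. The Csf2 window at chr11:54249850-54250149 (minus strand) holds a C/EBP match on the opposite strand at -145. The Kitl window at chr10:100015571-100015870 (plus strand) holds an NF-kB match on the opposite strand at -152, and an ETS match at -77 and a TATA box at -25 on its own strand. Positions count from the RefSeq start, which lies 232 bases upstream of the start in the expression table for Csf2. The Csf2 window therefore lies wholly upstream of the latter start and does not cover the bases next to it. For Kitl the RefSeq start lies 191 bases downstream, and for Csf1 the distance is 0. Of 32851 windows of this length, 8.46% hold the NF-kB motif, 40.7% the C/EBP motif, 13.6% the TATA box, 8.86% the ETS site, 7.81% AP-1 and 8.3% the STAT element. The part of any of these matches in the levels of the genes was not tested:
Csf1: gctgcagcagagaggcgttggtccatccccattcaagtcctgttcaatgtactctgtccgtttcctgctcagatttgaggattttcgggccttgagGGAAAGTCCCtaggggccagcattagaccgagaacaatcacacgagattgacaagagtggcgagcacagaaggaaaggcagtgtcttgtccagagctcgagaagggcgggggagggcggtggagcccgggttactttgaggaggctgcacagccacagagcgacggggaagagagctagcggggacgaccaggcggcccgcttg
Csf2: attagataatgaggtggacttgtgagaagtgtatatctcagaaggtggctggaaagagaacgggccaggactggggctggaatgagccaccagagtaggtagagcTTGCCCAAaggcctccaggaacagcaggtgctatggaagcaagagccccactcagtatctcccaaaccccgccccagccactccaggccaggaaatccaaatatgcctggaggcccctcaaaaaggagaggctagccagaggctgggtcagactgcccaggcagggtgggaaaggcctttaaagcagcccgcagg
Kitl: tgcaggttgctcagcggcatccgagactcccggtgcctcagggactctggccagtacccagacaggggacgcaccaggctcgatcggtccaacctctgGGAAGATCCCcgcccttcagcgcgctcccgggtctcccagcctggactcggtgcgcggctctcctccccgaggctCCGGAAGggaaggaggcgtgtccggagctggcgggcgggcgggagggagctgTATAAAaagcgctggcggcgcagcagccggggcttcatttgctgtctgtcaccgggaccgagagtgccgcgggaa

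Csf1 was the most abundant of the 5 in every library, and it was upregulated by IFNγ/LPS in STHdhQ111 cells. Csf1 (ENSMUSG00000014599) lies on the minus strand at chr3:107741048-107760469 in GRCm38, with 7 annotated transcripts of up to 9 exons, some of which encode a membrane-bound form that gene-level values do not separate. Q7-C replicates 1, 2 and 3 had 101, 171 and 194 TPM, and Q7-T replicates had 234, 68.2 and 245 TPM. In Q111-C the values were 118, 122 and 127 TPM, and in Q111-T they were 429, 283 and 421 TPM. Thus every Q111-T library lay above all libraries of the other groups, Q111-C was tightly grouped, and the Q7-T group overlapped Q7-C with replicate 2 at the lowest level of all 12. Ordered from low to high, Q111-C averaged 122 ± 4.27 TPM, Q7-C 155 ± 48.4, Q7-T 182 ± 99.0 and Q111-T 378 ± 82.5 (SD, n = 3), and each group overlapped the next up to Q7-T.

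A gene was called a DEG when edgeR's quasi-likelihood test on the estimated counts gave a p, adjusted by Benjamini and Hochberg's method, below 0.05 and the change was 2-fold or more. Csf1 rose 3.28-fold in Q111-T vs. Q111-C (log2 fold change 1.71, SE 0.26, adjusted p = 7.5e-04). Its log2 fold change in STHdhQ7, Q7-T vs. Q7-C, was 0.34 (SE 0.26, adjusted p = 0.623, 95% interval -0.22 to 0.90). Without Q7-T replicate 2 that value was 0.63 with an adjusted p of 0.037, still under 2-fold. The difference of the responses, STHdhQ111 minus STHdhQ7, was 1.37 on the log2 scale (SE 0.36, adjusted p = 0.0512) and did not pass the threshold, although it was called under 7 of 20 alternatives. Between treated lines, Q111-T vs. Q7-T, the difference was 0.74 (SE 0.26, adjusted p = 0.0397) and did not reach 2-fold. For nontreated cells the log2 fold change of Q111-C vs. Q7-C was -0.63 (SE 0.26, adjusted p = 0.11). On the scale of the test, TMM-scaled CPM (counts relative to the scaled library total), Q111-C (279 to 295) lay below Q7-C (366 to 501) without overlap, whereas in TPM the groups overlapped. The median gene moved between these scales too, by 0.27 on log2(TPM + 0.5) for Q111-C vs. Q7-C against -0.02 in edgeR.

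**Figure D1:**
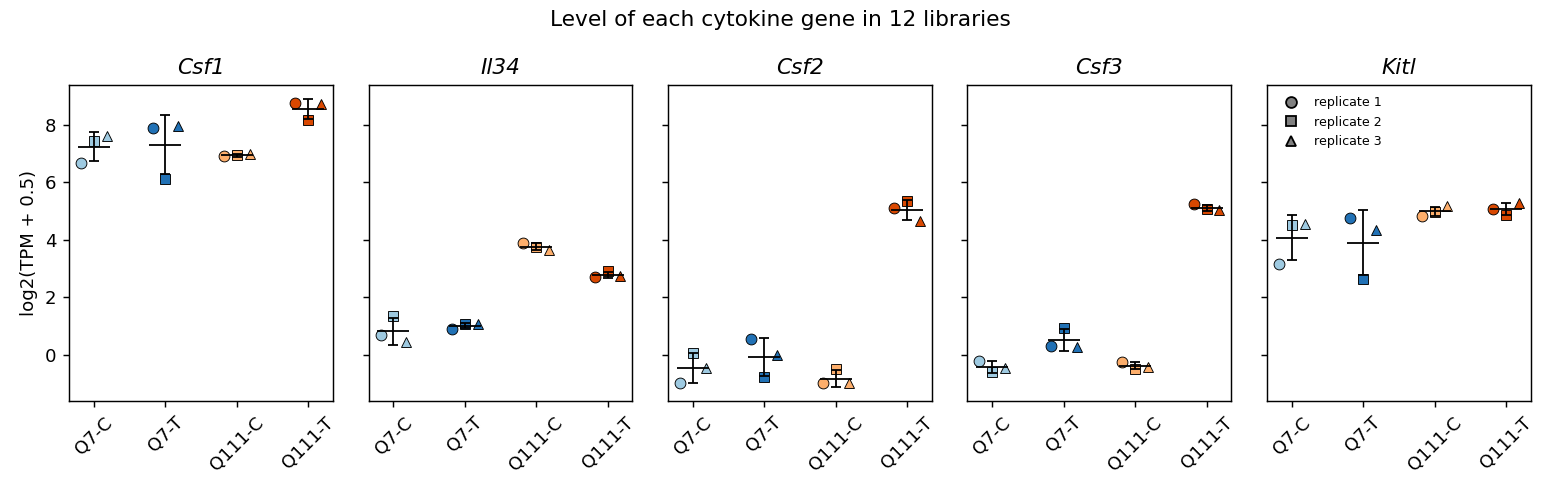
Level of each gene in log2(TPM + 0.5) for the 12 libraries, with one marker shape for each replicate number; horizontal bars and whiskers give the mean and SD of 3 libraries. Csf2 and Csf3 are near the bottom of the axis everywhere but in Q111-T, Il34 separates the lines, and Q7-T replicate 2 is the lowest library for Csf1 and Kitl.

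Il34, which encodes the other CSF1R ligand, was higher in STHdhQ111 than in STHdhQ7 cells under both conditions. The gene (ENSMUSG00000031750) spans chr8:110741829-110805903 on the minus strand. Its levels were 1.11, 2.02 and 0.839 TPM in Q7-C and 1.36, 1.58 and 1.56 TPM in Q7-T. They were 14.3, 12.8 and 11.9 TPM in Q111-C and 5.93, 6.95 and 6.17 TPM in Q111-T. The lines did not overlap, and within STHdhQ111 the treated libraries were all below the nontreated ones, whereas Q7-C and Q7-T overlapped. Groups without overlap in TPM were seen for 51.4% of all genes tested in Q111-C vs. Q7-C and 46.3% in Q111-T vs. Q7-T. Marker levels of other cell types also differed between the lines. The summed level of 4 astrocyte markers was 1.04 to 1.77 TPM in STHdhQ7 libraries, 8.65 to 10.7 TPM in Q111-C and 3.83 to 4.94 TPM in Q111-T, with Slc1a3 most of it in each STHdhQ111 library and Gfap and Aqp4 under 0.5 TPM in every library. Slc1a3 averaged 0.90 TPM in Q7-C, 9.86 in Q111-C and 2.75 in Q111-T. Aldh1l1 averaged 0.364, 0.0384 and 1.32 TPM in the same order, with the opposite direction at each step. The neural progenitor markers Nes and Sox2 summed to 70.4 to 118 TPM in Q7-C and 10.7 to 12.9 TPM in Q111-C, and to 33.2 to 95.5 TPM in Q7-T and 8.64 to 13.6 TPM in Q111-T. Their part in the levels of Il34 was not tested. In order, Q7-C averaged 1.32 ± 0.62 TPM, Q7-T 1.50 ± 0.12, Q111-T 6.35 ± 0.53 and Q111-C 13.0 ± 1.21 (SD, n = 3).

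The log2 fold change of Il34 was 2.97 in Q111-C vs. Q7-C (SE 0.37, adjusted p = 1.21e-04), a 7.84-fold higher level. Il34 was the 1 member called in that comparison, in which 15.2% of all genes tested were called in either direction. After treatment the line difference was 1.62 (SE 0.35, adjusted p = 0.00386), or 3.07-fold. In Q111-T vs. Q111-C, Il34 gave -0.92 (SE 0.34, adjusted p = 0.0884, 95% interval -1.66 to -0.17), so the separation of the libraries did not pass the test, and 49.6% of all genes tested had groups without overlap there. In Q7-T vs. Q7-C it gave 0.44 (SE 0.35, adjusted p = 0.649), and the difference of the responses was -1.35 (SE 0.48, adjusted p = 0.142), called with DESeq2 and with limma on log2(TPM + 1) and in none of the other 18 alternatives. The antisense genes Gm15894 and Gm15895 overlap Il34 on the opposite strand. Gm15894 averaged 0.0488 and 0.0726 TPM in nontreated and treated STHdhQ7 cells and 0.615 and 0.365 TPM in STHdhQ111 cells. The labels describe stranded libraries without saying whether the counting used strand, so reads of Il34 and of these genes may not have been separated.

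The ratio of the CSF1R ligands set the nontreated STHdhQ111 libraries apart. Csf1 exceeded Il34 in TPM by 91.5, 84.4 and 231 times in the Q7-C libraries and by 172, 43.3 and 156 times in Q7-T. In Q111-C this ratio was 8.27, 9.52 and 10.7, and in Q111-T it was 72.4, 40.7 and 68.3. The Q111-C libraries had the 3 lowest ratios of all 12, and Q111-T overlapped Q7-T. Q111-C did not overlap Q7-C or Q111-T, and two-sided exact permutation tests gave p = 0.1 for each, the smallest p that 3 libraries against 3 allow and one that cannot pass 0.05, while Q111-T vs. Q7-T gave p = 0.3 and Q7-T vs. Q7-C gave p = 1 (4 comparisons, exact permutation). Summed over the 5 genes, Q7-C had 175 ± 56.5 TPM, Q7-T 202 ± 109, Q111-C 167 ± 6.73 and Q111-T 484 ± 81.1 (SD, n = 3). Il34 made up 7.83% ± 1.03 of this sum in Q111-C and 0.805% ± 0.364 in Q7-C.

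**Figure D2:**
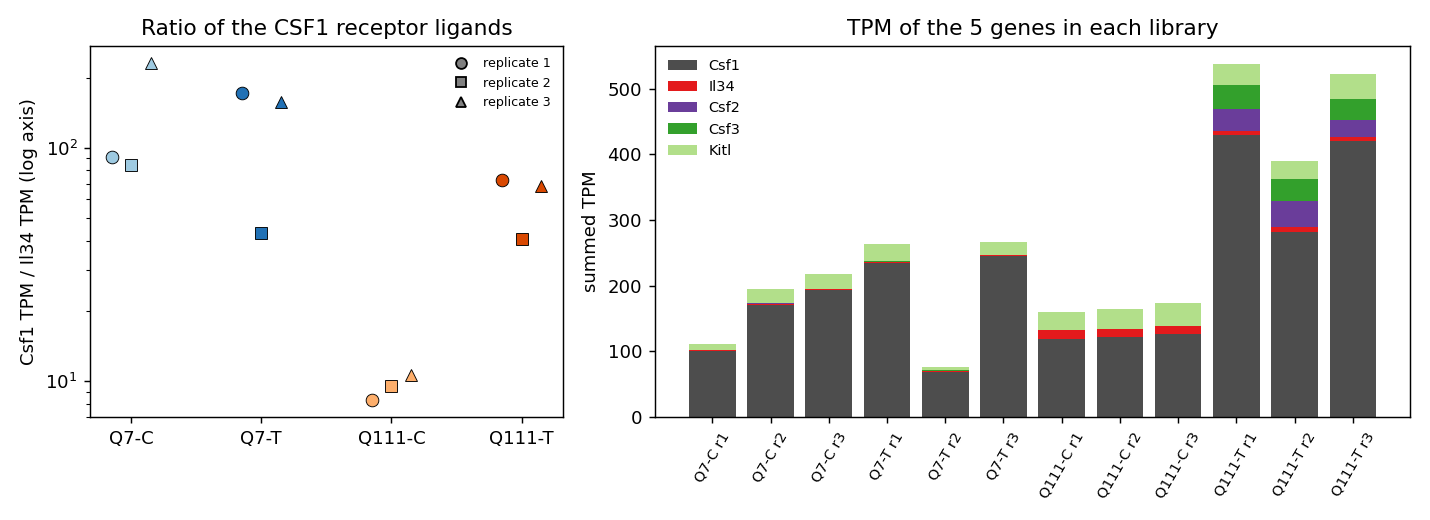
Left, ratio of Csf1 to Il34 TPM in each library (log axis, one marker shape for each replicate number); right, stacked TPM of the 5 genes in each of the 12 libraries. The ratio lies between 8.27 and 10.7 in Q111-C and at 40.7 or more elsewhere, and Csf2 and Csf3 are visible parts of the bar in Q111-T alone, with 4.75% to 10.3% and 6.20% to 8.35% of the sum.

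Csf2, encoding GM-CSF, was at or near the limit of detection in nontreated cells and was upregulated in Q111-T. Csf2 (ENSMUSG00000018916) is a compact gene of 4 exons at chr11:54247271-54249667 on the minus strand. Q7-C replicates had 0, 0.539 and 0.218 TPM, and Q7-T replicates had 0.960, 0.0778 and 0.479 TPM. Q111-C had 0, 0.201 and 0 TPM, which stands for 0, 6 and 0 estimated counts, each within the 12 estimated counts (3 read pairs) taken as the floor. The Q111-T libraries had 33.5, 40.3 and 24.8 TPM from 967, 1065 and 552 estimated counts, and none of the other 9 libraries reached 1 TPM. Thus Q7-C, Q7-T and Q111-C overlapped at these depths, and Q111-T stood apart.

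In Q111-T vs. Q111-C the fitted log2 fold change of Csf2 was 8.87 (SE 1.22, adjusted p = 3.3e-04), a size that depends on the prior count since Q111-C had almost no reads. It was 12.8 without Q111-C replicate 2, the Q111-C library with reads, and 5.87 with limma on log2(TPM + 0.5), past both thresholds each time. Counted in read pairs over the group, 646 in Q111-T stood against 2 in Q111-C, a depth-scaled ratio of 372 with an exact 95% interval of 103 to 3082 that covers counting error only. Between the treated lines the fitted value was 5.75 (SE 1.01, adjusted p = 0.00103), and 646 against 12 read pairs gave a ratio of 52.0 (29.6 to 101). In Q7-T vs. Q7-C the fit gave 1.13 (SE 0.97, adjusted p = 0.675), with 12 against 6 read pairs, so a response of Csf2 in STHdhQ7 was not detectable at this depth. That value was 2.16 without Q7-C replicate 2 and 0.51 without Q7-T replicate 1, not called in either. The responses differed by 7.75 (SE 1.51, adjusted p = 0.0118), and without Q7-C replicate 2 this difference was 6.69 with an adjusted p of 0.0619. It was 11.7 without Q111-C replicate 2 and 5.49 with limma on log2(TPM + 0.5), past both thresholds in each. In Q111-C vs. Q7-C the value was -2.00 (SE 1.21, adjusted p = 0.286), on 2 and 6 read pairs, and it was -5.93 without Q111-C replicate 2 and -0.93 without Q7-C replicate 2, not called in either. The antisense gene Gm12223, which overlaps Csf2, had at most 0.191 TPM in any library.

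Csf3, encoding G-CSF, was upregulated in both lines, far more in STHdhQ111, although its call in STHdhQ7 depended on the setting of the fit. The gene (ENSMUSG00000038067) has 5 exons at chr11:98701263-98703629 on the plus strand of the chromosome that also carries Csf2. It had 0.354, 0.153 and 0.227 TPM in Q7-C, and 0.739, 1.41 and 0.699 TPM in Q7-T. In Q111-C it had 0.333, 0.210 and 0.243 TPM, and in Q111-T 37.0, 32.6 and 32.4 TPM. The nontreated groups overlapped, the Q7-T libraries lay above every nontreated library, and Q111-T lay above them all. Of all genes tested, 14.4% had groups without overlap in Q7-T vs. Q7-C. The mean level was 0.244 ± 0.102 TPM for Q7-C, 0.262 ± 0.063 for Q111-C, 0.948 ± 0.398 for Q7-T and 34.0 ± 2.58 for Q111-T (SD, n = 3).

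The log2 fold change of Csf3 was 7.05 in Q111-T vs. Q111-C (SE 0.60, adjusted p = 9.01e-06), on 1170 against 10 read pairs, or 135-fold (exact interval 73.1 to 282). In Q7-T vs. Q7-C it was 2.19 (SE 0.52, adjusted p = 0.0324), a 4.58-fold change on 40 against 10 read pairs. It was 1.45 without Q7-T replicate 2, the library that stood apart (adjusted p = 0.0507), and 2.77 without Q7-C replicate 1 (adjusted p = 0.0156). Csf3 was the 1 member called in that comparison, where 4.04% of all genes tested were called, and its call was lost under 12 of 21 alternatives, among them limma on log2(TPM + 0.5) (0.94, under 2-fold) and the fit of these groups alone (adjusted p = 0.307). The difference of the responses, 4.85 (SE 0.74, adjusted p = 0.00338), stayed past both thresholds in all 20 alternatives. Between treated lines the log2 fold change was 4.61 (SE 0.53, adjusted p = 5.57e-05), and it was 5.38 without Q7-T replicate 2. Between nontreated lines it was -0.24 (SE 0.55, adjusted p = 0.812). Csf2 and Csf3 reached like TPM in Q111-T, with ratios of Csf2 to Csf3 of 0.905, 1.24 and 0.766 in replicates 1, 2 and 3.

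Csf1, Csf2 and Csf3 were the 3 of 5 members called in Q111-T vs. Q111-C, where 11.2% of all genes tested were called and 8.28% were called higher. In Q111-T vs. Q7-T 3 of 5 were called, namely Il34, Csf2 and Csf3, against 24.5% of all genes tested. The difference of the responses was called for 2 of 5, Csf2 and Csf3, against 4.71% of all genes called in either direction and 3.52% called higher. The median log2 fold change of the 5 was 1.71 after treatment of STHdhQ111 and 0.44 after treatment of STHdhQ7, beside medians of -0.005 and 0.003 over all genes tested. As poly(A) RNA came from whole cultures, more cells that express a gene and more RNA per cell cannot be told apart.

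**Figure D3:**
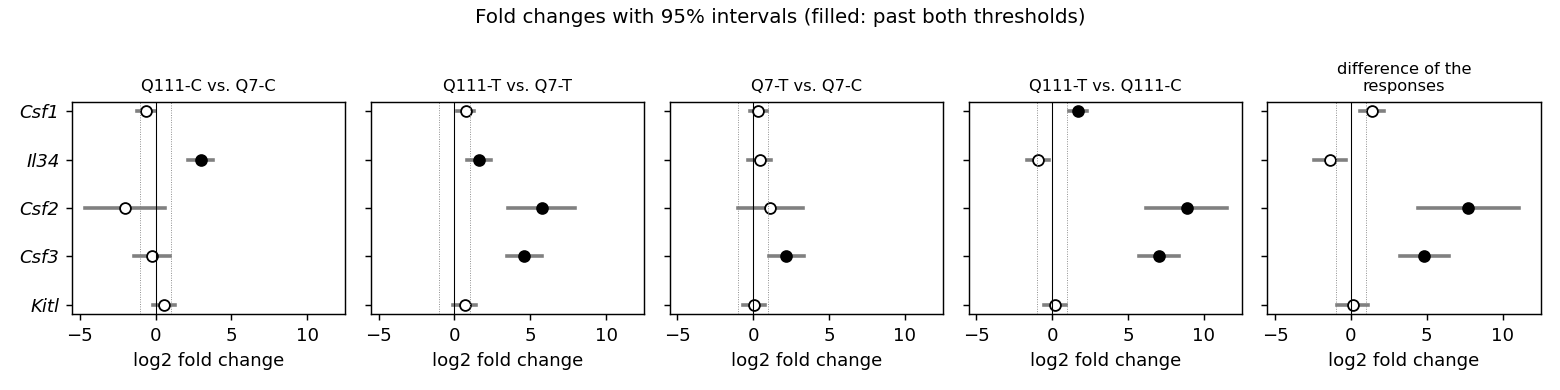
Fitted log2 fold change of each gene in the 4 pairwise comparisons and in the difference of the responses to IFNγ/LPS (STHdhQ111 minus STHdhQ7), with 95% intervals; filled points passed the adjusted p and the 2-fold threshold, drawn as dotted lines. Csf2 and Csf3 have filled points in every panel that involves Q111-T, Il34 in both comparisons between lines, and Kitl in none.

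Kitl passed no threshold in any comparison, although its levels separated the lines. Kitl (ENSMUSG00000019966), whose transcripts encode shed and membrane-retained forms of KIT ligand, lies at chr10:100015630-100100416 on the plus strand with 6 annotated transcripts of up to 10 exons. Its values were 8.37, 22.1 and 22.7 TPM in Q7-C and 26.1, 5.62 and 19.6 TPM in Q7-T. In Q111-C they were 27.8, 30.4 and 35.1 TPM and in Q111-T 32.7, 28.2 and 38.0 TPM. Each STHdhQ111 group lay above the STHdhQ7 group of the same condition without overlap, and Q7-C replicate 1 and Q7-T replicate 2 were the lowest of the 12. In TPM, 51.4% of all genes tested did not overlap in Q111-C vs. Q7-C and 46.3% in Q111-T vs. Q7-T.

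The log2 fold changes of Kitl between lines were 0.56 in Q111-C vs. Q7-C (SE 0.33, adjusted p = 0.281, 95% interval -0.17 to 1.29) and 0.67 in Q111-T vs. Q7-T (SE 0.33, adjusted p = 0.135, interval -0.06 to 1.40). Without Q7-C replicate 1 the value for nontreated lines was 0.30, and without Q7-T replicate 2 that for treated lines was 0.35. The response to IFNγ/LPS was 0.18 in STHdhQ111 (SE 0.33, adjusted p = 0.801, interval -0.55 to 0.91) and 0.07 in STHdhQ7 (SE 0.33, adjusted p = 0.955, interval -0.66 to 0.80). The missed threshold does not show that Kitl was unresponsive, and these intervals bound what a response could be. As a share of the summed TPM of the 5 genes, Kitl made up 18.6% ± 1.44 (SD, n = 3) before and 6.86% ± 0.68 after treatment of STHdhQ111 cells.

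Of the receptors for these ligands, the signalling chains with a row here were at low levels. Csf1r had at most 0.479 TPM in any library, and Csf2rb, the common beta chain gene, had group means of at most 0.0312 TPM. Csf2rb2, a neighbouring homologue whose product serves IL-3 and none of these ligands, was listed with them and had group means of at most 0.0406 TPM. Of the 8 receptor genes listed, 6 had a row and 2 were tested, and neither was called in any of the 5 comparisons by edgeR, DESeq2 or limma on log2(TPM + 0.5), nor had an unadjusted p under 0.05 in edgeR. Over all genes, edgeR called 4.04% to 24.5% in these comparisons, and 15.4% to 47.7% had such an unadjusted p. Csf2ra, the ligand-binding chain for GM-CSF, averaged 2.30 and 1.86 TPM in nontreated and treated STHdhQ7 cells and 1.98 and 2.22 TPM in STHdhQ111 cells. Sdc1, a syndecan that can bind IL-34, averaged 65.7, 57.0, 89.0 and 83.7 TPM in the same order. Macrophage and microglial genes were read as well, because such cells respond to LPS. Of 9 markers, 7 had a row, and Csf1r, Adgre1, Itgam, Ptprc and P2ry12 were under 0.5 TPM in every library. The summed level of the list was 46.0 to 62.5 TPM in Q111-T and 31.9 to 37.0 TPM in Q111-C, and it was 11.9 to 18.2 TPM in Q7-T and 17.8 to 20.6 TPM in Q7-C. The means of the remaining 2 genes had opposite directions: Cd68, a lysosomal gene, averaged 15.2 TPM in Q111-C and 48.8 TPM in Q111-T (7.09 and 11.7 TPM in STHdhQ7), while Tmem119 averaged 18.7 and 5.13 TPM (12.3 and 3.14 TPM in STHdhQ7).

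Other cytokines that act on blood cells were compared with the members. Of 7 tested, 4 were upregulated in STHdhQ111 and 1 in STHdhQ7 after treatment, beside 8.28% and 2.93% of all genes tested. Il6, an acute-phase cytokine, averaged 1.24 TPM in Q111-C and 618 TPM in Q111-T, a log2 fold change of 9.06. In STHdhQ7 it averaged 1.17 TPM before and 12.7 TPM after treatment (3.58, adjusted p = 0.0529) and narrowly missed the call. Lif, a related cytokine, rose in both lines, by 5.41 in STHdhQ111 and 2.23 in STHdhQ7. Il7 and Il11 rose in STHdhQ111 by 2.10 and 2.02. The response differed between lines for 3 of the 7, Il6 (5.48), Lif (3.18) and Il11 (3.28), beside 4.71% of all genes tested. Without Q111-C replicate 1 the count in STHdhQ111 was 2, and that in STHdhQ7 ranged from 1 to 2 over the alternatives. The count of differing responses was 1 with the replicate block, and also without Q7-C replicate 2 or 3, Q111-C replicate 1 or 2, or any Q111-T replicate. It was 5 without both Q7-C replicate 1 and Q7-T replicate 2.

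Genes that act downstream of the receptors were tested next. Of 18 signalling genes, treatment upregulated 5 in STHdhQ111 and 4 in STHdhQ7, beside 8.28% and 2.93% of all genes tested. Feedback inhibitors were among both: Socs1 rose by 3.40 in STHdhQ111 and 3.83 in STHdhQ7, Socs3 by 1.67 and 2.45, and Cish by 2.41 and 1.33. These genes also answer IFNγ directly, and their relation to the members was not tested. Lyn, a Src-family kinase, rose by 1.25 in STHdhQ111, and its response differed between lines (1.32, adjusted p = 0.00984), a call that neither limma fit made for any gene of the list. The count in STHdhQ111 was 2 with limma on log2(TPM + 1). That in STHdhQ7 was 2 in both limma fits, with only these groups fitted and with the replicate block. It was also 2 without Q7-C replicate 1, Q7-C replicate 2, Q7-T replicate 1 or Q7-T replicate 3.

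Transcription factors and decay factors known to act on genes of this kind were upregulated in part. Of 22 tested, 11 were called higher in STHdhQ111 after treatment and 4 in STHdhQ7, beside 8.28% and 2.93% of all genes tested. In the list edgeR called 0 lower in either line (0 and 1 at an unadjusted p under 0.05, and 0 by DESeq2 or by limma on log2(TPM + 0.5)). Over all genes, 11.2% and 4.04% were called in either direction, which leaves a small share called lower there too. The median log2 fold change of the list was 1.34 in STHdhQ111 and 0.16 in STHdhQ7. Subunits of AP-1 rose in Q111-T: Fos by 3.54, Fosl1 by 2.69 and Jun by 2.21, and each of these responses differed between lines (3.91, 1.99 and 2.25). Cebpb, a C/EBP factor, rose by 2.98 in STHdhQ111 from 0.478 to 3.59 TPM and gave 0.97 in STHdhQ7, and the difference of its responses did not pass the test (2.00, SE 0.83, adjusted p = 0.202). Cebpa rose by 2.65 in STHdhQ111 and gave -0.31 in STHdhQ7, and the difference of its responses was called (2.96, adjusted p = 6.4e-04). Cebpd rose in both lines, by 2.51 in STHdhQ111 and 4.41 in STHdhQ7, with a response that was larger in STHdhQ7 (difference -1.90). Zfp36, which encodes tristetraprolin, rose by 2.38 in STHdhQ111 and more than in STHdhQ7 (difference 1.56). Zc3h12a, encoding Regnase-1, and Nfkbiz, encoding an inducible NF-kB cofactor, rose in both lines, by 3.21 and 2.96 in STHdhQ111 and by 3.14 and 3.00 in STHdhQ7. Of the NF-kB subunits, Nfkb1 rose in STHdhQ7 by 1.04 and gave 0.81 in STHdhQ111, under 2-fold, with a difference of the responses of -0.23 (adjusted p = 0.755). Rel gave 1.15 in STHdhQ111 without passing the test (adjusted p = 0.0569). Rela (0.62, adjusted p = 0.0038), Relb (0.91, adjusted p = 0.0053) and Nfkb2 (0.61, adjusted p = 0.0202) passed the adjusted p there but stayed under 2-fold. Nfkb1 did likewise (adjusted p = 0.0281). Over the alternatives the counts ranged from 10 to 12 in STHdhQ111 and from 3 to 4 in STHdhQ7.

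**Figure D4:**
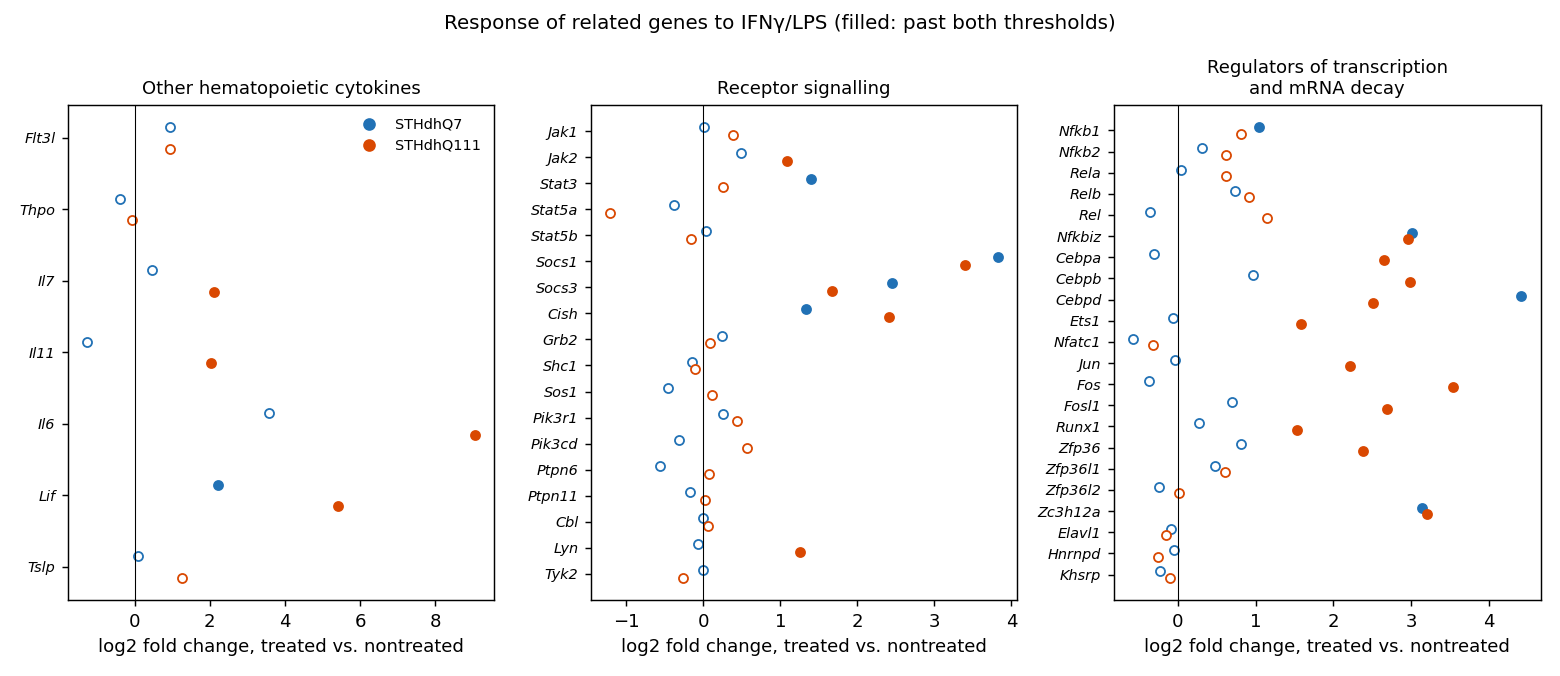
Fitted log2 fold change after IFNγ/LPS in STHdhQ7 (blue) and STHdhQ111 (orange) for the tested genes of 3 lists; filled points passed the adjusted p and the 2-fold threshold. The AP-1 genes Fos, Fosl1 and Jun have filled points in STHdhQ111 alone, while Socs1, Nfkbiz and Zc3h12a have them in both lines.

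The genomic neighbours of the members were tested as well. Within 100 kb of the start of Csf1, Il34, Csf2 and Csf3 lay 2, 8, 2 and 10 other genes, of which 1, 5, 0 and 6 were tested, and edgeR called 0 both in Q111-T vs. Q111-C and between the nontreated lines. These shares stand beside 11.2% and 15.2% of all genes tested. At an unadjusted p under 0.05 the respective counts were 5 and 9 of 12, beside 29.7% and 33.0% of all genes, DESeq2 called 0 and 1, and limma on log2(TPM + 0.5) called 0 and 2. Between the treated lines edgeR called 1 of the 12, the pseudogene Srsf3-ps near Csf3 (-1.29, adjusted p = 0.019), beside 24.5% of all genes. For the difference of the responses it called 1 of the 12, beside 4.71% of all genes: Nr1d1, which encodes the circadian repressor REV-ERBα and starts 74070 bases from Csf3. It averaged 20.1 and 32.1 TPM in Q111-C and Q111-T (log2 fold change 0.77, adjusted p = 0.00258, under 2-fold), and its response exceeded that of STHdhQ7 by 1.22 (adjusted p = 0.00477). Psmd3, a proteasome subunit gene next to Csf3, averaged 164 TPM in Q111-C and 133 TPM in Q111-T (log2 fold change -0.20, adjusted p = 0.474). Kitl had no neighbour in this window.

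Likeness of pattern was described by Pearson's r of log2 CPM over the 12 libraries, which share 4 groups, so the values mostly reflect group levels and carry no test. The pattern of Csf2 was nearest to that of Enc1 (0.982) and Agfg1 (0.981), and that of Csf3 to Mettl6 (0.991), Pnp (0.991) and Tor3a (0.991). For Csf1 the nearest genes were Txnrd1 (0.986), a thioredoxin reductase, and Plcxd2 (0.981), with the angiogenic factor Vegfa (0.967) in the fifth place. Il34 was nearest to Acan (0.98), which encodes the proteoglycan aggrecan and averaged 0.0482 TPM in Q7-C, 14.4 in Q111-C and 2.13 in Q111-T, and to Rgs4 (0.978). Kitl was nearest to Txlng (0.991) and Tpp2 (0.987). Among the members, Csf2 was nearest to Csf3 (0.893) and Csf1 (0.889), and Csf1 and Il34 had an r of -0.22.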

How the data were processed

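Poly(A) RNA of 12 samples was sequenced as stranded paired-end libraries. The authors trimmed reads with Cutadapt, aligned them to GRCm38 by HISAT2 and quantified genes by StringTie. The deposited table holds TPM, computed by the authors, and estimated counts, which the authors deposited without normalization. Samples were grouped by their labels. The members and gene lists were chosen with earlier results of these data known. Named genes were the members, the listed genes, neighbours within 100 kb and the 5 genes most like each member.

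The filter kept genes that reached 0.5 TPM in 3 or more libraries. Rounded estimated counts were scaled by TMM and fitted in edgeR 4.0.16 (R 4.3.3) with a mean for each of 4 groups, 4 pairwise contrasts and their difference. SEs derive from the F statistic. As 1 read pair appears to stand for about 4 counts, counts overstate depth, which bears on low genes such as Csf2. The steps were tested on simulated data. Alternatives were DESeq2 1.42.0, limma 3.58.1 on log2(TPM + 0.5) and log2(TPM + 1), median-of-ratios scaling, no filter, counts divided by 4, only the groups compared, a replicate block, and leaving out libraries. Read pairs carry no molecular identifiers, so counting intervals cover counting error only. A gene listed for the treatment check is not reported here.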

Additional observations from a re-analysis of the deposited data

Results flagged for a closer look

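The response to IFNγ/LPS differed between the lines, by the test of the difference itself in edgeR, for Csf2 and Csf3. For Csf2 the response of STHdhQ111 exceeded that of STHdhQ7 by 7.75 on the log2 scale (SE 1.51, adjusted p = 0.0118), with all 3 Q111-T libraries at 24.8 TPM or more and every other library under 1 TPM. Its size moved with the setting: it was 11.7 without Q111-C replicate 2, 4.72 with limma on log2(TPM + 1), and 6.69 without Q7-C replicate 2, where the call was lost (adjusted p = 0.0619). For Csf3 it exceeded it by 4.85 (SE 0.74, adjusted p = 0.00338), with all 3 Q111-T libraries at 32.4 TPM or more and every Q7-T library at 1.41 TPM or less. It was 5.60 without Q7-T replicate 2, the library that stood apart, and 4.27 without Q7-C replicate 1, and it was called in both.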

How the results depend on the processing

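Of 520 values of single members under the alternatives, 484 kept their direction and their side of the threshold, 13 lost and 11 gained a call, and 12 changed sign. The count of members called in Q7-T vs. Q7-C, 1, was 0 with limma on log2(TPM + 0.5) or log2(TPM + 1), with only the groups compared and with the replicate block, and 0 to 1 when single libraries were left out. For the difference of the responses, 2 members called became 4 with DESeq2, which added Csf1 and Il34, and 1 to 3 when single libraries were left out. Csf1 in Q111-T vs. Q7-T was called with limma on log2(TPM + 0.5) (1.23). The main fit took the replicate numbers as unpaired, and 7 of 18 same-numbered pairs had deviations correlated above 0.1 (range -0.58 to 0.45). Libraries with different numbers were not compared in this way, so these values cannot decide whether the numbers pair the samples. The call of Csf3 in Q7-T vs. Q7-C was lost without Q7-C replicate 2 or 3, Q7-T replicate 2, Q111-C replicate 2 or 3, or any Q111-T replicate (adjusted p 0.0507 to 0.14). The difference of the responses was called for Csf1 without Q7-C replicate 1, Q7-T replicate 2 or Q7-T replicate 3. With the replicate block, Csf3 in Q7-T vs. Q7-C had an adjusted p of 0.0689, and no other member's call changed, while the other cytokines with a differing response numbered 1 (from 3) and the signalling genes called higher in Q7-T vs. Q7-C 2 (from 4). The values that changed sign were never called. They were Csf3 in Q111-C vs. Q7-C (0.039 and 0.022 with limma at a pseudocount of 0.5 and 1, -0.51 to 0.34 when single libraries were left out, and 0.33 without both Q7-C replicate 1 and Q7-T replicate 2, an alternative chosen after seeing the data), Kitl in Q7-T vs. Q7-C (-0.17 and -0.16 with limma, -0.24 to 0.39 when single libraries were left out), and the Kitl difference of the responses (-0.22 to 0.42 when single libraries were left out). Among all genes, the count called in Q7-T vs. Q7-C went from 651 to 414 with limma on log2(TPM + 1) and 394 with only the groups compared, and that of the difference of the responses from 760 to 1303 with DESeq2 and 1374 without both libraries. The causes of these shifts were not tested. Depth limits Csf2 and Csf3 below about 1 TPM, where a library holds a few read pairs.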

Other observations

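Some genes related to the members differed between the nontreated lines. In Q111-C vs. Q7-C, 15.2% of all genes tested were called. Of 18 signalling genes, 2 were called higher, Stat5a (2.55, from 2.08 to 15.0 TPM) and Stat3 (1.21), and 2 were called lower, Lyn (log2 fold change -1.40) and Sos1 (-1.13). Of 7 other cytokines, 2 were called higher and 1 lower. Lif gave 1.45 and Thpo, encoding thrombopoietin, -1.78, while Tslp, an epithelial cytokine, went from 0.031 to 0.666 TPM, for which the size of the fold depends on the prior count and is not given. Of 7 proteases that can shed membrane-bound growth factors, 1 was called: Mmp2 averaged 103 TPM in Q111-C against 20.4 TPM in Q7-C (2.02), while Adam17, at 9.66 and 13.5 TPM, gave 0.23. None of the 7 was called in either comparison of treated with nontreated cells by edgeR, DESeq2 or limma on log2(TPM + 0.5), and 1 had an unadjusted p under 0.05 in each of them in edgeR. Over all genes, edgeR called 4.04% in Q7-T vs. Q7-C and 11.2% in Q111-T vs. Q111-C, and 15.4% and 29.7% had such an unadjusted p.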
